A study of Mus musculus with 4 samples.

Results

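Collagens and laminins are the proteins from which the fibrous matrix beneath an epithelium and the basement membrane under its cells are built. All array probes whose gene name was Col, a number, the letter a and a number, or Lama, Lamb or Lamc with a digit, were taken, which gave 121 probes for 55 genes among 37325 gene names on the array. Of these, 44 were collagen genes and 11 were laminin genes. The gene Col4a3bp, which encodes a ceramide transfer protein and no collagen, was left out. The genes fell into 26 interstitial collagens, 9 basement membrane collagens, 4 epithelial laminin chains (among them Lama3, Lama5 and Lamb3), 7 other laminin chains and 9 remaining collagens.

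RNA came from the epithelium of mouse jejunum and ileum, which had been scraped off mechanically. The mice were C57BL/6J animals of 9 weeks, and in all groups they were Tcrbd-/-, that is, without functional T cell receptor genes of the beta and delta kind. Their Dao genotype was DAOwt/wt or DAOG181R/G181R, an allele of D-amino acid oxidase known to remove the activity of this enzyme of D-amino acid breakdown. The 4 groups were the wild-type and the G181R jejunum and the wild-type and the G181R ileum, and each was 1 pool of RNA of 5 mice on 1 array. No difference in this text therefore has a p-value or an error between mice, and a comparison shows how 2 pools differed.

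Collagen chains wind in groups of 3 into a triple helix. Interstitial collagens, such as the fibrillar collagens I and III and the beaded filaments of collagen VI, are made mainly by fibroblasts and other cells beneath the epithelium. Basement membranes hold a sheet of collagen IV and a sheet of laminins, each laminin made of an alpha, a beta and a gamma chain. The chains of Lama3 and Lamb3 are parts of a laminin that is made by epithelial cells and binds the hemidesmosome, the junction that ties an epithelial cell to its basement membrane.

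Signals below are processed intensities before scaling. A log2 difference was taken after the 75th percentile of each array had been subtracted, and it compares the same probe on 2 arrays. A gene was measured in a comparison where its brightest probe stood well above background on each of the 2 arrays, and a difference was counted from 2-fold. Between 57.4% and 60.4% of the 56605 probes were well above background on an array, no probe was saturated, and all 4 arrays lay on 1 slide and were read in 1 scan. Among probes printed 10 times, the median SD of a log2 difference over repeat spots was 0.0394 to 0.0436, and 0.185 to 0.244 for probes with a mean signal under 50. That spread covers spots of 1 hybridisation only, and precision is limited by how few arrays there are. All 12 epithelial markers were well above background on every array, and so were 13 or 14 of 14 smooth muscle markers, so markers of both kinds of cell were present in the scrapings. The G181R allele is a change of 1 amino acid, which the arrays do not read.

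Of the 55 genes, 33 were well above background on all 4 arrays and 11 on none, while 20543 and 12802 of all 37325 genes were. All 4 epithelial laminin chains were above background on every array. So were 17 of 26 interstitial collagens, 4 of 9 basement membrane collagens and 5 of 7 other laminin chains. Collagen IV was represented by Col4a1 and Col4a2, the chains of the common form of the network, on all arrays. Col4a3 and Col4a4 were on no array well above background. Col15a1, a basement membrane zone collagen, gave signals of 1.6 to 3.5, well above background on no array.

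Promoter sequences are shown for Col1a2, Col3a1 and Lamb3, and for the region where Col4a1 and Col4a2 start. All are among the genes whose values are given below. The sequences come from RefSeq's GRCm38.p6 table, which held a window for 40 of the 55 genes. Each of the first 3 is the 250 bases before the annotated start, read 5′ to 3′ on the gene's strand, which is the plus strand for all 3. The windows lie at chr6:4505368-4505617 for Col1a2, at chr1:45311288-45311537 for Col3a1 and at chr1:193301744-193301993 for Lamb3. A further Lamb3 window, at chr1:193301993-193302242, is not shown. Capitals mark matches, on either strand, of 4 motifs. These were the TATA box (TATAAA), the CCAAT box by its name, the motif bound by AP-1 factors (TGANTCA) and the GC box (GGGCGG). The last line is the stretch of 30 bases at chr8:11312801-11312830, plus strand, in which Col4a2 and Col4a1 start in opposite directions, and its capitals mark the 22 bases from the start of Col4a2 (11312805, plus strand) to that of Col4a1 (11312826, minus strand).
Col1a2: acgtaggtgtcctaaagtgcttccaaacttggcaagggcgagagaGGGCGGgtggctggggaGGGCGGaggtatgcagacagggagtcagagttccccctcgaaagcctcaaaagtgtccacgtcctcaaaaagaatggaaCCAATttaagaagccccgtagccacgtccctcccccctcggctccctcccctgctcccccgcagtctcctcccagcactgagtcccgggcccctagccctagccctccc
Col3a1: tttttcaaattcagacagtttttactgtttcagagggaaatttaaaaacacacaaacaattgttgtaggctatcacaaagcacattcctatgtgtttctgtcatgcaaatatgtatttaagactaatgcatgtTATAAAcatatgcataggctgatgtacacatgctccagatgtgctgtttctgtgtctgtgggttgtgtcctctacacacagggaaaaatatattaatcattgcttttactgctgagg
Lamb3: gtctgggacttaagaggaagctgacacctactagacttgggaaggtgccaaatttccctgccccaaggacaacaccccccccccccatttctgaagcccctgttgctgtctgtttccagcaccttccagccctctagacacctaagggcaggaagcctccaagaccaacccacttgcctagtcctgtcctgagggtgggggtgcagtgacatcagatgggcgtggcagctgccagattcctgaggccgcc
Col4a2 and Col4a1 starts: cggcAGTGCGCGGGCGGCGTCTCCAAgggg

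The Col1a2 window held a CCAAT box whose first base lay 109 bases before the start and GC boxes at 205 and 188 bases before it. The Col3a1 window held TATAAA at 117 bases before the start, and the Lamb3 window held none of the 4 motifs. No match in these windows overlapped another. Over the 44 windows of the collagen and laminin genes, a GC box was found in 24 (54.5%), against 32.7% of the 32851 windows of this length in the table. CCAAT was found in 14 (31.8%, against 33.8%), TATAAA in 5 (11.4%, against 12.4%) and TGANTCA in 1 (2.27%, against 6.75%). A match is a stretch of letters and not a measured binding site.

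In the ileum, most collagen and laminin genes had a lower level in the G181R pool than in the wild-type pool. Of 34 measured genes, 25 were lower in G181R, where 46.8% of the 21608 genes measured in this comparison were lower. At the 2-fold threshold, 5 genes were lower (14.7%) and 0 were higher, against 3.21% lower and 2% higher over all measured genes. The median log2 difference was -0.50 over the members and 0.03 over all genes. The 5 genes were Lama3, Lamb3, Col5a3, Col6a3 and Col12a1. Fewer cells of a type and less RNA per cell cannot be told apart in such bulk samples.

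Lama3, the alpha chain of the hemidesmosomal laminin, had the largest genotype difference in both tissues among the chosen probes measured on both arrays. Its signal was 368.5 in the wild-type and 154.1 in the G181R jejunum, and 1060.4 in the wild-type and 176.7 in the G181R ileum. Both G181R pools were thus below both wild-type pools, and the wild-type ileum stood highest. Lama3 was 5.69-fold lower in the G181R ileum (log2 difference -2.51) and 2.45-fold lower in the G181R jejunum (-1.29). A second Lama3 probe gave signals of 98.3, 45.0, 232.0 and 43.5 in the same order of pools, with log2 differences of -2.34 in ileum and -1.16 in jejunum.

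Lamb3, the beta chain that assembles with Lama3, followed it in the ileum but less so in the jejunum. Its signal was 840.9 in the wild-type and 715.3 in the G181R jejunum, and 3414.8 in the wild-type and 1607.4 in the G181R ileum. Both ileum pools stood above both jejunum pools. The log2 genotype difference was -1.01 in ileum, 2.01-fold, and -0.27 in jejunum. A second probe, with signals of 205.0, 184.4, 923.1 and 396.1, gave -1.14 and -0.19. The brighter Lamb3 probe lies at chr1:195170009-195170068 in mm9, the build of the array files.

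The 2 chains changed unequally with genotype: relative to Lamb3 on the same arrays, Lama3 was 2.82-fold lower in the G181R ileum and 2.03-fold lower in the G181R jejunum. Lama5, the alpha chain of the laminin found under most of the intestinal epithelium, gave 414.4 and 395.9 in the jejunum and 401.6 and 337.1 in the ileum, wild-type before G181R. Its differences were -0.10 in jejunum and -0.18 in ileum.

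**Figure D1:**
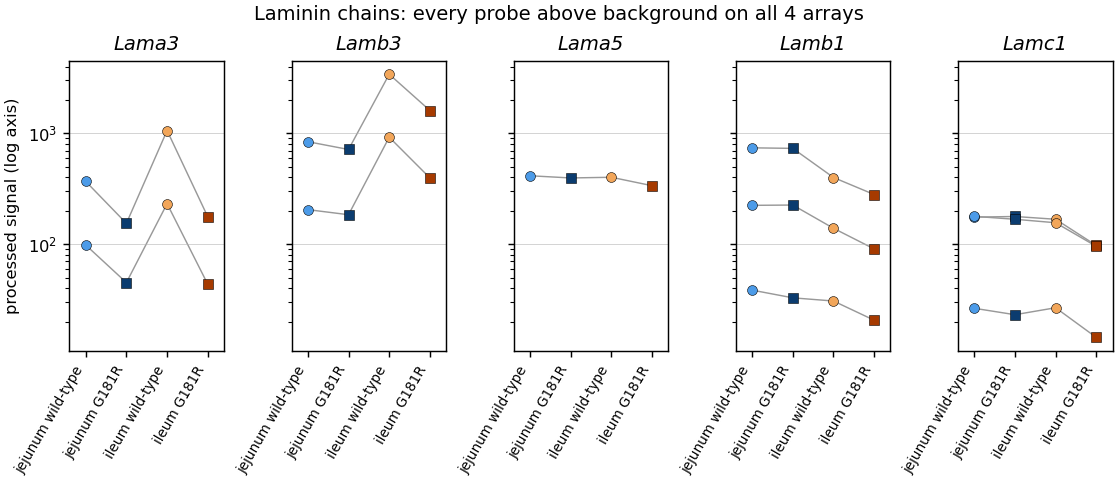
Processed signal (log axis) of each probe that was well above background on all 4 arrays, for 5 laminin chains; each point is 1 array of pooled RNA, and a line joins the values of 1 probe. Both Lama3 probes are lowest in the G181R pools, both Lamb3 probes are highest in the wild-type ileum at 3414.8 and 923.1, and Lama5 runs nearly level from 414.4 to 337.1.

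The other laminin chains, several of which are made by vessel, nerve and muscle cells, were also mostly lower in the G181R ileum. Of 6 measured chains, 5 were lower, against 46.8% of all genes, none by 2-fold, and the median log2 difference was -0.57. Lama4, the alpha chain of vessel and muscle basement membranes, gave 40.4, 45.0, 36.9 and 18.1 in the same order of pools. On this probe only the G181R ileum was low, and the ileum genotype difference was -0.95. A dimmer Lama4 probe, at 10.2 and 11.3 in ileum, gave 0.22, and the brighter one gave -0.29 with normexp. Lamb1, a beta chain of many tissues, gave 740.4, 731.8, 399.6 and 280.5, and its partner Lamc1 gave 175.3, 177.8, 167.8 and 97.3. Their ileum differences were -0.43 and -0.71, and their jejunum differences -0.05 and -0.01. Lama1, an alpha chain best known from embryonic basement membranes, went the other way on its chosen probe, with signals of 70.4, 97.9, 32.5 and 52.0. It was higher in G181R by 0.44 in jejunum and by 0.76 in ileum. With normexp these values were 0.25 and 0.32. With the mean of all probes the ileum value was -0.48, where the other Lama1 probe was above background on no array.

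Interstitial collagens had a median log2 difference of -0.62 in the G181R ileum, where 13 of 17 measured genes were lower and 3 of them by 2-fold. Over all genes, 46.8% were lower and 3.21% were 2-fold lower. The chains of collagens I and III gave almost equal differences. Col1a1 gave signals of 234.9 and 202.9 in the jejunum and 203.4 and 122.2 in the ileum, wild-type before G181R. Col1a2 gave 783.8, 732.1, 643.4 and 396.3, and Col3a1 gave 589.9, 502.6, 433.5 and 261.8. For all 3 genes the G181R ileum was the lowest pool. Their ileum differences were -0.66, -0.62 and -0.65, and their jejunum differences -0.24, -0.13 and -0.26.

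Col4a1 and Col4a2, which start 22 bases apart in the sequence shown above, were lower to a like degree. Col4a1 gave 201.2, 190.7, 111.3 and 67.1 in the same order of pools, and Col4a2 gave 145.4, 130.3, 79.3 and 50.7. The ileum differences were -0.65 and -0.57, and the jejunum differences -0.11 and -0.19. Over Col1a1, Col1a2, Col3a1, Col4a1 and Col4a2 together, the ileum differences lay within 0.09 of each other on the log2 scale. With normexp background correction they spanned 0.25, and with the mean of the probes above background on both arrays 0.46, with Col1a2 at -0.21. A dimmer Col1a2 probe, with ileum signals of 19.9 and 21.7, gave 0.21. The measured chains of collagens VII and XVIII were not lower in the G181R ileum, and the median over the 4 measured basement membrane collagens was -0.22. The 3 measured collagens outside the named groups (Col8a1, Col13a1 and Col17a1) had a median of -0.26. Col7a1, which forms the anchoring fibrils below epithelia, gave 292.4, 355.5, 273.6 and 306.6, higher by 0.25 in jejunum and 0.24 in ileum. Col18a1, the source of endostatin, gave 484.4, 487.7, 116.7 and 120.6, with differences of -0.02 and 0.13. Col4a5, a chain of a minor collagen IV network, was well above background in all pools but the G181R ileum, where it was at least 2.16-fold lower than in the wild-type ileum.

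On the chosen probes, all 5 measured collagen VI chains were lower in the G181R ileum, with a median of -0.81, and in the G181R jejunum, with a median of -0.23. Over all genes, 46.8% were lower in the ileum and 51.7% in the jejunum. Col6a3, the large chain of the collagen VI filament, gave 297.5, 274.1, 172.9 and 74.9 and was 2.19-fold lower in the G181R ileum (-1.13). Col6a1 gave 794.0, 692.4, 443.9 and 239.7, with an ileum difference of -0.81. Col6a2 gave 89.8, 72.2, 38.7 and 28.1, with an ileum difference of -0.38. The 3 chains that assemble into 1 filament thus spanned 0.75 on the log2 scale in the ileum genotype comparison. The 2 dimmer Col6a3 probes, with signals from 13.3 to 22.3, gave 0.03 and -0.21 in the ileum. With normexp, Col6a1 to Col6a5 were at -0.72, -0.11, -0.73, -0.30 and -0.13 in the ileum. With the mean of all probes they were at -0.81, -0.15, -0.44, -0.22 and -0.14 there, and Col6a5 was at 0.18 in jejunum.

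The other interstitial collagens at 2-fold in the ileum had signals under 50 in all pools. Col5a3, a chain of the collagen V that sits within collagen I fibrils, gave 15.8, 17.4, 39.9 and 14.6. The wild-type ileum alone was high, and the G181R ileum was 2.58-fold lower (-1.37). Col12a1, which coats collagen I fibrils, gave 27.0, 23.3, 22.8 and 10.4, with an ileum difference of -1.05. Col5a1, the main collagen V chain, gave 137.2, 133.2, 84.2 and 62.1, with differences of -0.08 in jejunum and -0.36 in ileum. Col20a1, another fibril-associated collagen, gave 51.6, 56.2, 46.6 and 30.7, with differences of 0.09 and -0.53.

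Fibril-associated collagens were mixed in direction, with a median of 0.44 over 5 measured genes in the ileum genotype comparison. Col16a1, a fibril-associated collagen, was the highest of them in G181R relative to wild-type, at 0.92 in ileum and -0.27 in jejunum. Its signals were 114.5, 97.0, 257.5 and 462.9. That pattern rested on 1 probe, since the other Col16a1 probes were above background in the wild-type jejunum only (a signal of 16.4) or on no array. The other fibril-associated collagens that were higher in the G181R ileum had signals under 50 in all pools. For 1 of these, a second measured probe gave -0.06 in ileum.

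**Figure D2:**
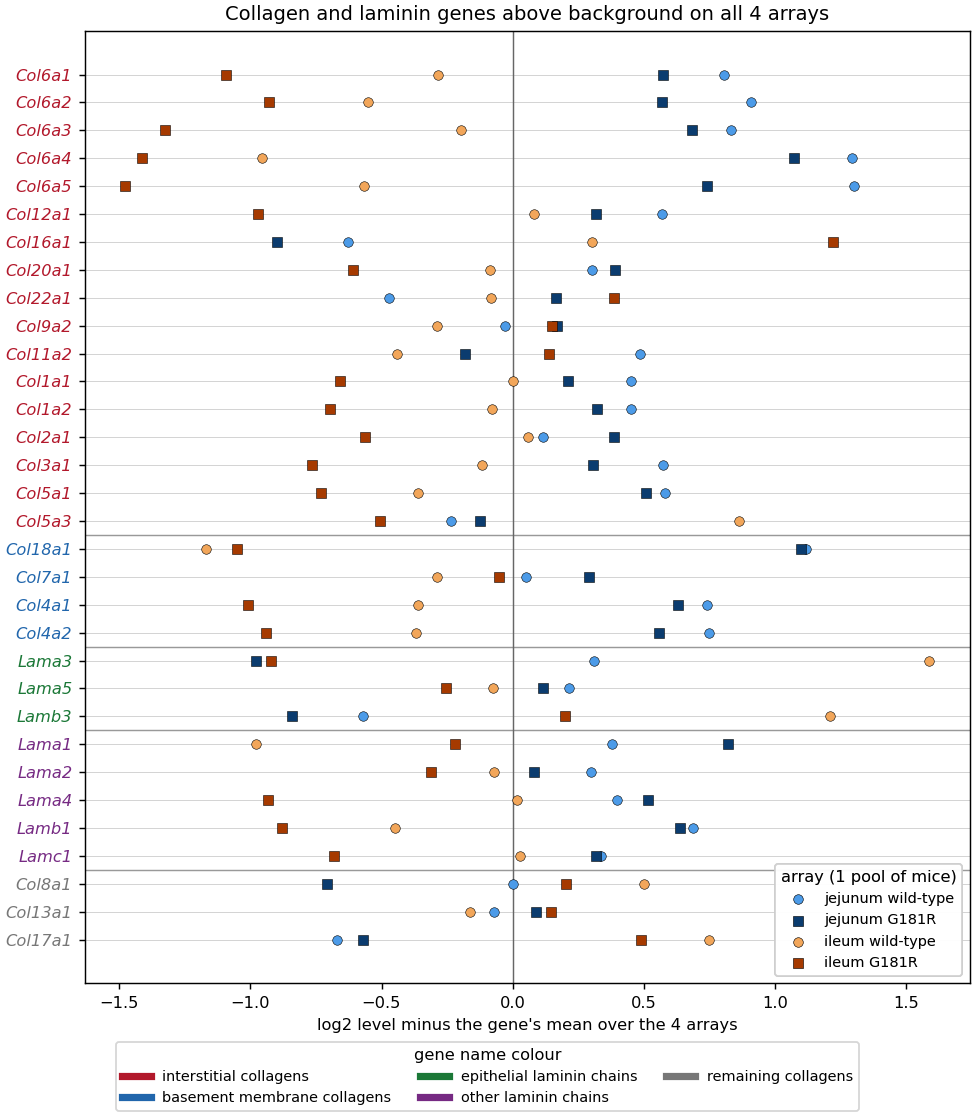
Log2 level of the genes well above background on all 4 arrays (1 of the 33 is not shown), minus that gene's mean over the arrays; each point is 1 array of pooled RNA, and gene names are coloured by group. For Col1a1, Col1a2, Col3a1, Col4a1, Col4a2 and the collagen VI chains the G181R ileum lies furthest left, while for Lama3 and Lamb3 the wild-type ileum lies furthest right.

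These ileum counts changed with the treatment of background and of probes. With normexp background correction, which adds an offset of 50 to every signal, and also with the mean of all probes of a gene, 1 of the 5 genes, Lama3, was past 2-fold (2.94% of the members). Over all genes the share 2-fold lower was then 1.0% and 2.89%. Lama3 was -2.20 with normexp, Lamb3 was -0.98, and Col5a3, Col6a3 and Col12a1 were -0.38, -0.73 and -0.21.

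In the jejunum, the genotypes differed little apart from Lama3. Of 38 measured genes, 25 were lower in G181R, against 51.7% of the 21354 genes measured. Lama3 alone was 2-fold lower (2.63% of the members) and 0 were 2-fold higher, against 0.749% and 0.763% of all genes. The median was -0.12 over the members and -0.01 over all genes. By group it was -0.15 for interstitial collagens, -0.15 for basement membrane collagens, -0.18 for epithelial laminin chains and -0.01 for other laminin chains. The largest other differences at signals under 50 were -0.93 for Col4a6, a minor collagen IV chain, and -0.71 for Col8a1, a network collagen of vessel walls.

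**Figure D3:**
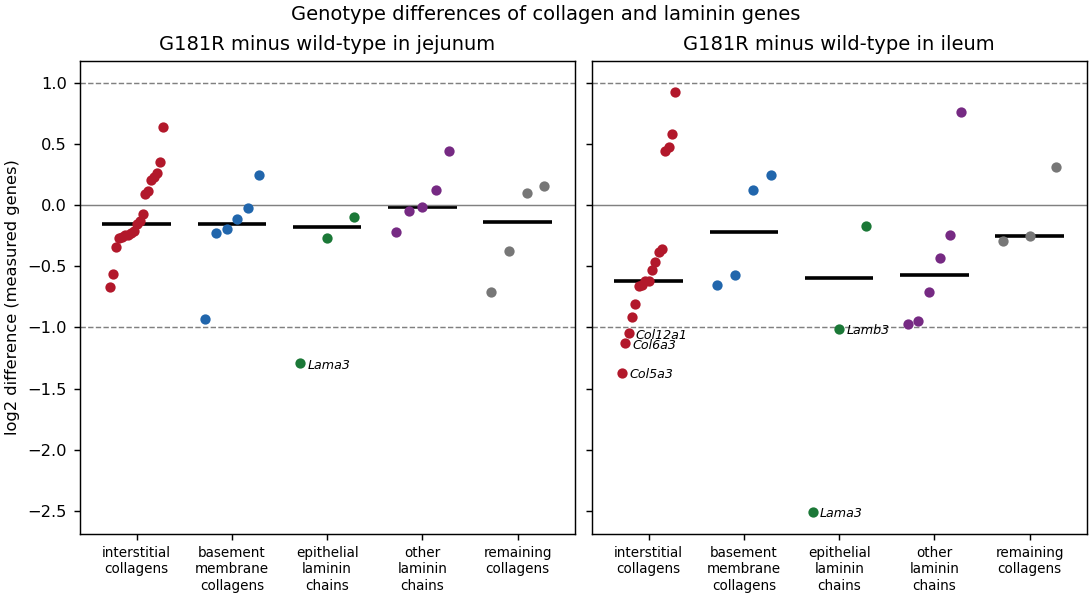
Log2 difference of G181R from wild-type in jejunum (left) and ileum (right) for each measured gene, by group; each point is 1 gene compared between 2 arrays (1 epithelial laminin chain is not shown), black bars are medians of all measured genes of a group, and dashed lines mark 2-fold. In jejunum only Lama3 (-1.29) is past the lower line, and in ileum Lama3 (-2.51), Col5a3 (-1.37), Col6a3 (-1.13), Col12a1 (-1.05) and Lamb3 (-1.01) are.

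RNA of smooth muscle differed with genotype in the ileum in the same direction. Of 13 measured smooth muscle markers, 13 were lower in the G181R ileum, 10 of them by 2-fold, with a median of -2.37. Those short of 2-fold were the actins Acta2 (-0.19) and Actg2 (-0.34), and Mylk (-0.83). In jejunum the median was 0.12. The summed level of the 14 markers, relative to the 75th percentile of each array, was 80.9 in the wild-type and 80.7 in the G181R jejunum, and 127.6 in the wild-type and 55.6 in the G181R ileum. Lmod1 was above background in the wild-type ileum only. The part of these markers in the lower collagen and laminin signals was not tested.

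Markers of other cell types differed less between the ileum genotypes. The medians were -0.34 for 10 fibroblast, -0.18 for 11 endothelial, -0.66 for 8 enteric glia and nerve, -0.30 for 4 mesothelial, -1.05 for 7 adipocyte and -0.04 for 12 epithelial markers. Summed levels in the same order of pools were 9.53, 8.90, 14.0 and 11.2 for fibroblast markers and 13.6, 11.8, 6.11 and 5.48 for endothelial markers. They were 49.1, 36.1, 40.9 and 25.4 for glia and nerve markers, and 139.1, 79.9, 53.8 and 25.6 for adipocyte markers. The glia and nerve sums came mostly from Erbb3, at 7284.1, 5420.6, 6864.6 and 4038.2. In jejunum the adipocyte sums came mostly from Cidec and Pck1, at 11473.9 and 9583.5 in wild-type. In wild-type, 5 of 8 measured glia and nerve markers and 3 of 6 adipocyte markers were higher in ileum than jejunum. Among them, Uchl1 gave 110.1 in jejunum and 221.1 in ileum, Adipoq 17.6 and 298.8, and Cfd 219 and 3105.4. Mesothelial markers summed to between 0.917 and 3.83, and epithelial markers to between 1781.4 and 1999.1. The fibroblast markers Meox2 and Twist2 and the glial marker S100b were well above background on no array. The part of these lists in the results was not tested.

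**Figure D4:**
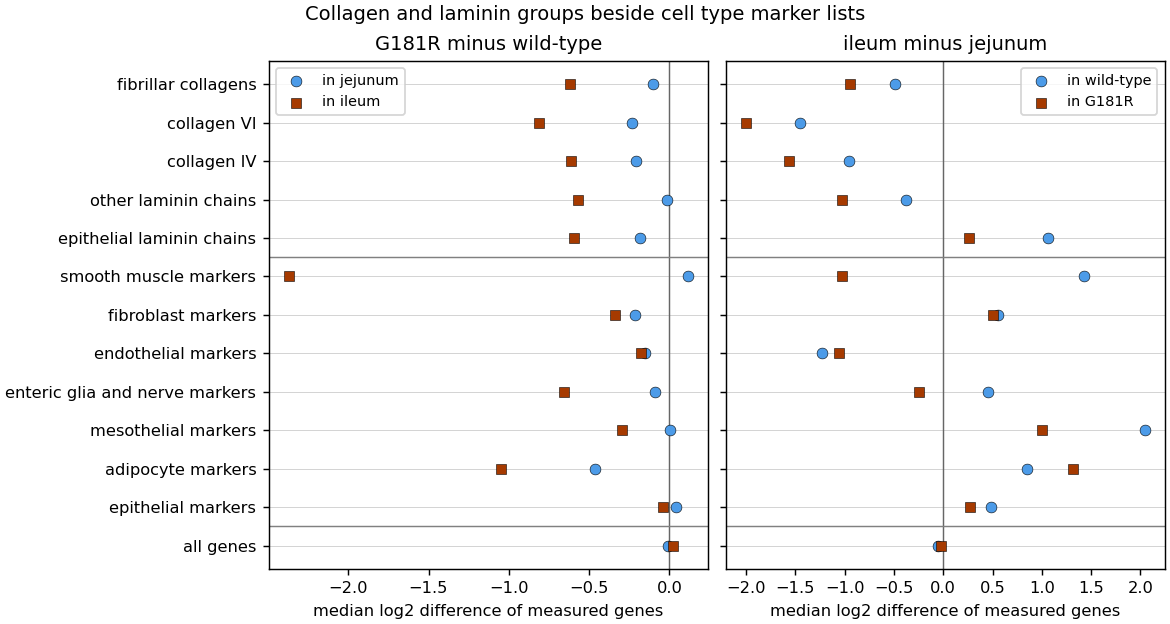
Median log2 difference of the measured genes of fibrillar collagens, collagen VI, collagen IV and both sets of laminin chains, 7 cell type marker lists and all genes; the left panel shows G181R minus wild-type and the right panel ileum minus jejunum, each point resting on 2 arrays. In the ileum genotype comparison, smooth muscle markers lie at -2.37 and epithelial markers at -0.04. The 5 collagen and laminin groups plotted lie between -0.81 and -0.57 there. Not plotted are the fibril-associated (0.44), basement membrane zone (0.18), transmembrane (0.03) and network VIII and X collagens (-0.29), with medians of that comparison. In the wild-type tissue comparison, smooth muscle markers lie at 1.42 and collagen VI at -1.46.

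Most collagen genes had a lower level in the ileum pools than in the jejunum pools, while the epithelial laminin chains Lama3 and Lamb3 were higher in the wild-type ileum than in the wild-type jejunum. These comparisons use the same 4 arrays as the genotype comparisons, so the values are set side by side and not as separate evidence. In wild-type, 28 of 36 measured genes were lower in ileum, against 53.4% of all genes, and 10 were 2-fold lower (27.8%) and 4 were 2-fold higher (11.1%), against 9.11% and 7.42%. In G181R, 24 of 34 were lower, against 52% of all genes, and 17 were 2-fold lower (50%) and 3 were 2-fold higher (8.82%), against 8.73% and 7.3%. The median was -0.38 in wild-type and -0.98 in G181R, and -0.05 and -0.03 over all genes.

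Collagen VI had the lowest group median. On the chosen probes, all 5 measured chains were 2-fold lower in ileum in both genotypes, with medians of -1.46 and -2.00. Over all genes, 9.11% were 2-fold lower in wild-type and 8.73% in G181R. Col6a4, a chain related to Col6a3, gave 593.6 and 523.3 in the jejunum pools and 147.9 and 101.7 in the ileum pools. It was 4.75-fold lower in wild-type ileum and 5.64-fold lower in G181R ileum. Col6a5, another such chain, gave 64.8, 44.8, 20.9 and 10.5, with tissue differences of -1.87 and -2.22. Col6a1, Col6a2 and Col6a3 were at -1.08, -1.46 and -1.03 in wild-type and at -1.66, -1.50 and -2.00 in G181R. The dimmer Col6a3 probes gave tissue differences of 0.39 and -0.59 in wild-type and of 0.31 and -0.52 in G181R.

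Among basement membrane collagens, Col18a1 had the largest tissue difference. Its jejunum pools stood at 484.4 and 487.7 and its ileum pools at 116.7 and 120.6, so the tissues did not overlap and the genotypes lay close together. It was 4.92-fold lower in the wild-type ileum (-2.30) and 4.43-fold lower in the G181R ileum (-2.15). Col4a1 and Col4a2 were lower, at -1.10 and -1.12 in wild-type and -1.64 and -1.49 in G181R. Col7a1 differed by -0.34 and -0.35. Collagen I and III chains differed less than collagen IV in wild-type, at -0.45 for Col1a1, -0.53 for Col1a2 and -0.69 for Col3a1, and at -0.86, -1.02 and -1.07 in G181R.

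The epithelial laminin chains had a median tissue difference of 1.06 in wild-type and 0.26 in G181R. Lamb3 was 3.43-fold higher in wild-type ileum (1.78) and 2.05-fold higher in G181R ileum (1.04). Lama3 was 2.43-fold higher in wild-type ileum (1.28) and level in G181R (0.06). Lama5 was at -0.29 and -0.36. Col17a1, the transmembrane collagen of hemidesmosomes, gave 25.6 and 28.1 in jejunum and 80.8 and 64.1 in ileum, with tissue differences of 1.41 and 1.06 and genotype differences of 0.10 and -0.26. Its ileum pools were both above its jejunum pools. With normexp its tissue differences were 0.59 and 0.47, and with the mean of all probes 0.55 and 0.50, short of 2-fold.

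Other laminin chains were lower in ileum in 5 of 5 measured genes in wild-type and 5 of 6 in G181R, against 53.4% and 52% of all genes. Lamb1 differed by -1.13 and -1.52, and Lama1 by -1.36 and -1.04. With normexp Lama1 was at -0.64 and -0.57. Lama4 and Lamc1 were at -0.38 and -0.31 in wild-type. In G181R, Lama4 was at -1.45 and Lamc1 lay just past 2-fold. Lamb2, a beta chain known from neuromuscular and vessel basement membranes, was the exception. It gave 27.6 in wild-type ileum and 8.2 in wild-type jejunum, where it was not well above background, so it was at least 2.83-fold higher in wild-type ileum. Col23a1, a transmembrane collagen, was at least 2.83-fold lower in wild-type ileum and at least 2.68-fold lower in G181R ileum. Col14a1 and Col19a1 are fibril-associated collagens with dim signals. Col14a1 gave 9.5 and 12.5 in jejunum and 5.1 and 3.5 in ileum, wild-type before G181R. It was at least 2.24-fold lower in G181R ileum than in G181R jejunum. Col19a1 gave 1.8, 14.5, 1.7 and 1.4 in the same order, at least 2.60-fold lower in G181R ileum than in G181R jejunum. It was above background in the G181R jejunum only, on 1 of 3 probes, and the wild-type jejunum was as dim as the ileum pools.

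**Figure D5:**
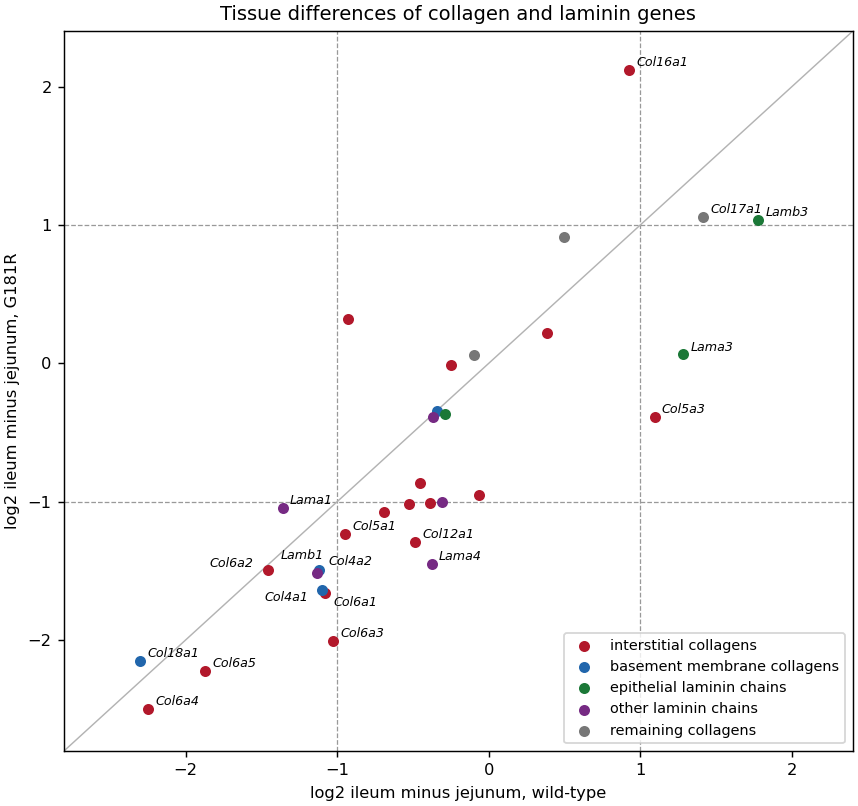
Log2 difference of ileum from jejunum in wild-type (horizontal axis) and in G181R (vertical axis) for genes measured on all 4 arrays (1 is not shown), coloured by group; each axis rests on 2 arrays, dashed lines mark 2-fold, and the diagonal marks equal differences. Col6a4 and Col18a1 lie at the lower left, Lamb3 and Col17a1 past 2-fold at the upper right, and Lama3 (1.28 and 0.06) and Col5a3 (1.09 and -0.38) below the diagonal.

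With normexp background correction, the 10 genes 2-fold lower in wild-type ileum became 2, Col18a1 and Col6a4, and the 17 in G181R became 6, among them Col6a1, Col6a3, Col4a1 and Lamb1. With the mean of all probes they became 6 and 11, and the 4 and 3 higher genes became 2 and 0. Smooth muscle markers moved the other way from the collagens in wild-type, with a median of 1.42 over 13 genes, and with them in G181R, at -1.02. Endothelial markers had medians of -1.24 and -1.06, fibroblast markers 0.56 and 0.51, glia and nerve markers 0.46 and -0.24, mesothelial markers 2.04 and 1.01, adipocyte markers 0.85 and 1.32, and epithelial markers 0.48 and 0.27. Their part in the tissue differences was not tested.

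Among the 33 genes on all 4 arrays, the genotype difference in ileum minus that in jejunum had a median of -0.38, against 0.01 over 20543 genes. It was past 2-fold downwards for 3 genes (9.09%) and upwards for 2 (6.06%), against 2.06% and 1.75% of all genes. For Lama3, which was lower in both tissues, this value was -1.22. The collagen I chains were at -0.41 for Col1a1 and -0.49 for Col1a2, and Col6a3 was at -0.98.

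Genes that act on or with collagens and laminins were taken from lists of their roles. Of 26 enzymes that modify or assemble collagen, 17 were measured in each genotype comparison. None in jejunum was past 2-fold, with a median of -0.11. In ileum 11 were lower, 2 of them by 2-fold, and 6 were higher, 0 by 2-fold, with a median of -0.44. Among the higher ones were Plod3 at 0.49, Crtap at 0.33 and Ppib at 0.30. Bmp1, the proteinase that cuts the C-terminal propeptide from fibrillar procollagens and also processes laminin chains, gave 1124.6 and 652.6 in the jejunum and 360.5 and 78.3 in the ileum, wild-type before G181R. It was lower in G181R in both tissues, at -0.82 and -2.12, and lower in ileum in both genotypes, at -1.89 and -3.19. Adamts2, which cuts the N-terminal propeptide, gave 23.0, 16.6, 45.6 and 21.0 and differed by -0.51 in jejunum and -1.04 in ileum. Plod2, a lysyl hydroxylase, was at -0.98 in ileum, at signals of 20.6 in wild-type and 9.9 in G181R. Loxl2, which crosslinks collagen IV, was at -0.69 in ileum. The collagen chaperone Serpinh1 was at -0.40 in jejunum and -0.48 in ileum. Crtap, part of the prolyl 3-hydroxylase complex, was higher in ileum than jejunum by 1.35 and 1.34.

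Of 15 basement membrane partners, 12 were measured in the ileum genotype comparison, with a median of -0.17. Of these, 7 were lower and 5 higher, 1 of each by 2-fold. Tinagl1 and Fbln1 were among the higher ones, at 0.62 and 0.59. Nidogens, which link laminin to collagen IV, were lower in the G181R ileum, with Nid2 at -1.01 and Nid1 at -0.76. Sparc, which binds collagen IV, was at -0.70, and Fbln2 was at -0.74. Fras1, a protein of the epithelial basement membrane, gave 179.9, 97.4, 33.9 and 4.1 and was not well above background in the G181R ileum. It differed by -0.92 in jejunum and was at least 5.26-fold lower in the G181R ileum. Frem1, which forms a complex with Fras1, went the other way at 1.83 in ileum, with signals of 9.3 in wild-type and 31.2 in G181R. Ntn4, a laminin-related netrin, differed by -0.94 in jejunum and was at least 2.50-fold lower in the G181R ileum. Between tissues, Fbln1, a fibulin that binds basement membrane proteins, was lower in ileum, at -3.07 in wild-type and -2.40 in G181R.

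Of 19 interstitial matrix partners, 15 were measured in each genotype comparison. In the ileum 13 were lower in G181R, 4 of them by 2-fold, with a median of -0.60, and in the jejunum the median was -0.21 with none past 2-fold. Ogn, a small leucine-rich proteoglycan, gave 80.2, 67.5, 198.4 and 31.9 and was at -2.56 in ileum. Postn, a collagen-binding matricellular protein, gave 8.6, 12.3, 35.4 and 10.7 and was at -1.65. Fn1, fibronectin, was at -1.27, and Lum, which spaces collagen fibrils, was at -1.13. For Ogn and Postn the wild-type ileum was the highest pool, unlike for Col1a1 and Col3a1, which were highest in the wild-type jejunum.

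Of 18 receptors, 17 were measured, with medians of -0.01 in jejunum and -0.09 in ileum. Ddr2, a receptor kinase for fibrillar collagens, gave 91.5, 69.0, 92.9 and 31.8 and was the only receptor past 2-fold between genotypes, at -1.47 in ileum. Itga11, a collagen receptor of fibroblasts, was at -0.89. Itga6 and Itgb4, chosen for their role as the hemidesmosomal receptor of the laminin that holds Lama3 and Lamb3, differed by 0.09 and -0.10 in jejunum and by 0.32 and -0.09 in ileum. Itga2, a collagen receptor of epithelia, was higher in ileum than jejunum by 2.08 in wild-type and 1.75 in G181R.

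Of 18 matrix proteases and inhibitors, 14 were measured in each genotype comparison, with medians of 0.00 in jejunum and 0.01 in ileum. Adamts4, a proteoglycan-cleaving protease, gave 80.1, 135.1, 55.3 and 304.5 and was higher in G181R by 0.72 and 2.54. Mmp15, a membrane-bound protease, and the inhibitors Timp2 and Timp3 were lower in the G181R ileum, at -1.52, -1.04 and -1.01. Mmp7, the matrix protease of Paneth cells, was higher in ileum than jejunum by 2.73 and 2.45. Counts for these lists are read against the same shares of all genes given above.

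Several genes had more than 1 measured probe, and the probes did not always give the same direction. In the ileum genotype comparison all measured probes shared a direction for 6 of 11 such genes, and in jejunum for 10 of 14. Col13a1, a transmembrane collagen, gave tissue differences of -0.09 and 0.06 on its chosen probe and -1.70 and -2.12 on another with signals of 57.2, 43.3, 20.9 and 10.9. For Col26a1, 2 further probes were above background in the G181R ileum only, at 18.4 and 13.9. A Lama2 probe that is not the one chosen gave 27.4 in the G181R jejunum and at most 1.6 elsewhere, a larger gap between the jejunum genotypes than that of Lama3.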

How the data were processed

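RNA of 4 groups, each 1 pool of 5 mice, was measured on 1-colour Agilent mouse arrays, 1 per group. The deposited intensity values are processed signals of Agilent Feature Extraction 11.5.1.1, background-subtracted and detrended within each array, per the file headers. Other deposited values are flags for each spot (above background, saturated, outlier), set by the same program per the file headers. The authors' deposited table holds log2 values with 2442 identical filled values per array, so it served as an alternative with those left out. Coordinates of probes are mm9.

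Spots marked as outliers were left out, log2 signals were averaged per probe, and the 75th percentile of each array over non-control probes was subtracted (Python 3.11.15, pandas 2.3.3, numpy 2.4.6). For 32994 probes the gene name came through the RefSeq accession, otherwise from the array. The brightest probe on average over the 4 arrays stood for its gene, and its values are given. Where 1 of 2 arrays was above background, "at least" gives the fold against the higher of the dim signal and the lowest signal above background. Scanner names and RefSeq names gave the same members. With 1 array per group there was no test. The counting was run on simulated differences with known answers and repeat-spot noise only. That checks the calculation and holds no variation between pools or mice. Alternatives were normexp (limma 3.58.1, R 4.3.3), other scalings, probe rules, filters, deposited values and a 1.5-fold threshold.

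The members, lists and the rule for named genes were chosen with earlier results of these data known. Of the members, 1 is in the counts and medians but is not reported here by itself. The rule gives 4 values for 16 chains chosen by role and for every other member 2-fold different in a comparison. Of each other list it gives up to 4 genes with the largest difference in the direction of the list's median, and genes of opposite direction at 2-fold.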

Additional observations from a re-analysis of the deposited data

Results flagged for a closer look

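On the chosen probes, the genotype difference of 4 genes pointed in opposite directions in the 2 tissues and differed between them by over 2-fold. The difference between the tissues was not tested, since each group had 1 array. For Col5a3 the genotype difference in ileum minus that in jejunum was -1.48 on the log2 scale, from 0.11 in jejunum and -1.37 in ileum. For Lama4 it was -1.07, from 0.12 and -0.95. For Col16a1 it was 1.20, from -0.27 and 0.92. For Col11a2, a fibrillar collagen best known from cartilage, it was 1.25, from -0.67 and 0.58. Its signals were 17.1 and 11.0 in the jejunum and 10.6 and 15.0 in the ileum, wild-type before G181R. The jejunum differences of Col5a3 and Lama4, at signals under 50, lay within the repeat-spot SD of 0.235 for such probes. Their opposite directions also depended on the processing. With normexp, Col5a3 was at -0.05 in jejunum and -0.38 in ileum. With the mean of all probes, Lama4 was at -0.11 in jejunum and -0.17 in ileum.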

How the results depend on the processing

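No paired analysis was possible because each group had 1 array and the labels give no replicate numbers, and no array could be left out for the same reason. Quantile normalization left every count within 1.5 times of its main value and every median within the repeat-spot spread. The mean of the probes above background on both arrays was chosen after seeing the data. For counts at 2-fold, G181R against wild-type in jejunum gave 1 lower gene, which became 3 with the mean of all probes, 3 with no background filter and 4 at 1.5-fold (7.89%, 5.45% and 10.5%, against 0.941%, 4.46% and 4.08% of all genes), and 0 higher genes, which became 2 with no filter and 1 at 1.5-fold. In ileum the 5 lower genes became 1 with normexp, 3 with median scaling, 1 with the mean of all probes, 10 with no filter and 15 at 1.5-fold (2.94%, 8.82%, 2.94%, 18.2% and 44.1% of the members, against 1.0%, 2.75%, 2.89%, 5.40% and 8.66% of all genes), and the 0 higher genes became 1 with no filter and 2 at 1.5-fold. Between tissues in wild-type, the 10 lower genes became 2 with normexp and 6 with the mean of all probes (all genes 4.87% and 8.73%), and the 4 higher ones became 2, 2 and, with no filter, 7. In G181R the 17 lower genes became 6 and 11 (all genes 4.51% and 8.15%), and the 3 higher ones became 0 with the mean of all probes. With no filter the median of all genes itself moved to -0.10, -0.12, -0.27 and -0.07 in the 4 comparisons. Of the jejunum genotype medians, that of interstitial collagens turned to 0.081 with the mean of all probes and was -0.10 with normexp, -0.22 for genes above background on all 4 arrays and -0.11 with the mean of measured probes. Basement membrane collagens were at -0.054 with normexp, -0.19 with no filter, -0.067 on all 4 arrays and -0.19 with deposited values. Epithelial laminin chains were at -0.14 with normexp and -0.27 with deposited values, and other laminin chains at 0.21 with the mean of all probes, 0.12 with no filter and -0.11 with the mean of measured probes. Of the ileum genotype medians, interstitial collagens were at -0.18 with normexp, -0.57 with median scaling, -0.38 with the mean of all probes, -0.47 with no filter, -0.58 with deposited values and -0.46 with the mean of measured probes. Basement membrane collagens were at -0.11, -0.17, -0.57 and -0.57 with normexp, median scaling, no filter and deposited values. Epithelial laminin chains were at -0.54 with median scaling, -0.48 with the mean of all probes and -1.01 with deposited values. Other laminin chains were at -0.25 with normexp, -0.52 with median scaling, -0.42 with the mean of all probes, -0.43 with no filter, -0.43 on all 4 arrays and -0.43 with the mean of measured probes. Apart from the shift that normexp's offset and the unfiltered probes give by construction, the cause was not tested. Signals under 50 limit the precision: the 7 or 8 such probes printed repeatedly on the array spread by 0.185 to 0.244.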
